A study of Mus musculus with 3 samples.

Results

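The genes described here carry the main steps of antigen presentation, the display of peptides on the cell surface to T cells. They were taken by symbol from the feature list of the libraries: H2-K1, H2-D1, B2m, Tap1, Tapbp, Psmb8, Psmb9, Cd74, H2-Aa and H2-Ab1, which are 10 of 32287 features. All 10 were found once, and all 10 passed the filter of at least 100 UMIs (unique molecular identifiers, counted transcript molecules) over the 3 libraries, as did 16915 genes in all. Their levels are given in each library, in cells grouped by GFP UMIs, and in neurons and microglia named from marker genes.

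The study asked what happens to Müller glia (MG), the radial glia of the retina, when their cell cycle is reactivated. All mice carried Glast-CreERT2 and R26-CAG-LSL-Tdt, so that the glial Glast promoter drove Cre and tamoxifen (75 mg/kg, begun at P20) switched on tdTomato. At P28 they received an intravitreal AAV7m8 vector, whose GFAP promoter drives expression in MG. The control group received GFP-LacZsh alone. The CCA group received cyclinD1-p27sh, which carries cyclin D1 and a short hairpin against p27, mixed 9:1 with GFP-LacZsh. The CCANT group received the CCA mix followed by NMDA at P35, which injures retinal neurons, and TSA (trichostatin A, an inhibitor of histone deacetylases) at P37. Retinas were taken at P51, 2 to 4 retinas of a group were pooled, tdTomato+ cells were sorted, and 1 droplet library (10x Genomics, 3′ ends) was made per group. All 3 groups, the control included, therefore carried a virus and were chosen for visible GFP, and no uninjected retina is part of the comparison.

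Class I molecules present peptides from inside the cell. They consist of a heavy chain such as H2-K1 or H2-D1 and the light chain B2m. The immunoproteasome subunits Psmb8 and Psmb9 cut the peptides, the transporter subunit Tap1 carries them into the endoplasmic reticulum, and Tapbp (tapasin) bridges the transporter and the empty class I molecule. Class II molecules, made of chains such as H2-Aa and H2-Ab1 and guided by the invariant chain Cd74, present peptides from outside the cell and are best known from macrophages, dendritic cells, B cells and activated microglia. Interferon gamma is the classic inducer of both sets, through the regulators NLRC5 for class I and CIITA for class II.

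In mm10 coordinates, 8 of the genes lie in the major histocompatibility complex on chromosome 17: Tapbp at chr17:33915899-33929292, H2-K1 at chr17:33996017-34000347, Psmb9 at chr17:34181987-34187764, Tap1 at chr17:34187553-34197225, Psmb8 at chr17:34197721-34201454, H2-Ab1 at chr17:34257689-34269419, H2-Aa at chr17:34282744-34287823 and H2-D1 at chr17:35262730-35267499. B2m is at chr2:122147686-122153083, and Cd74 lies outside both regions. The spans of Tap1 and Psmb9 overlap on opposite strands, and B2m, Tapbp and Psmb8 overlap other annotated genes. H2-K1 and H2-D1 resemble each other and the H2-Q genes, so how reads were divided among these genes is uncertain.

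The promoters are shown because 4 of the genes share a spaced pair of short motifs. Promoter sequences of RefSeq (GRCm38.p6) were found for 8 of the 10 genes, all but Cd74 and H2-Ab1. A TGACG followed on the same strand by an ATTGG with 10 to 30 bases between them, searched on both strands, was present in H2-K1, H2-D1, B2m and H2-Aa and in 0.743% of all 32851 promoters of 300 bases. Motifs and spacing were chosen after the promoters were seen, so the share of all promoters gives no measure of enrichment. This arrangement resembles the X2 and Y boxes of the SXY module, which complexes containing NLRC5 or CIITA are known to read. The 250 bases before the start are printed 5′ to 3′ on the strand of the gene, with both motifs in capitals.
H2-K1 (chr17:34000348-34000597, minus strand): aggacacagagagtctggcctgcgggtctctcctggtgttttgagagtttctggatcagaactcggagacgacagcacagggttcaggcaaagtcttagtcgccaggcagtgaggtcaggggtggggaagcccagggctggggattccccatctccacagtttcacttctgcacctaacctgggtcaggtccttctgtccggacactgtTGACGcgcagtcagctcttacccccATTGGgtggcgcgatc
H2-D1 (chr17:35262844-35263093, plus strand): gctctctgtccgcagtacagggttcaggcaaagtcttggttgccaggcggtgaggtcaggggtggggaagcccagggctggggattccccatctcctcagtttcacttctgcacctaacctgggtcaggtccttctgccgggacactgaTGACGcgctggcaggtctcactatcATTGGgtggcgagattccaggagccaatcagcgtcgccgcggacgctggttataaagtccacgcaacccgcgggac
B2m (chr2:122147437-122147686, plus strand): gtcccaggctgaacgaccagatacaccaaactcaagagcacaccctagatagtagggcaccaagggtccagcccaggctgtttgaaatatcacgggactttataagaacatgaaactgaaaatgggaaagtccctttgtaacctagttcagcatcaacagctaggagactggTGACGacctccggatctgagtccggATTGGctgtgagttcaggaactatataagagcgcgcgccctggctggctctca
H2-Aa (chr17:34287824-34288073, minus strand): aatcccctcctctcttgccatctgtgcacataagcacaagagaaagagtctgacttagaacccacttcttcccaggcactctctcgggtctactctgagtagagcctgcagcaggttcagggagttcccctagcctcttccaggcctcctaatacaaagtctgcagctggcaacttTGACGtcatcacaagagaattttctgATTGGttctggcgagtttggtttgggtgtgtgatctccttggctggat

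The motifs were 20 bases apart in the 3 class I chains and 21 in H2-Aa, and lay on the strand of the gene in all 4. Their TGACG, in the entries printed, began 41 bases before the start in H2-K1, 101 in H2-D1, 78 in B2m and 74 in H2-Aa. H2-K1 has a second promoter entry, in which the TGACG lies 55 bases before the start. None of the 4 peptide supply genes held the pair in the window searched. The 250 bases read for Tapbp, Psmb8, Psmb9 and also H2-D1 lie inside the gene spans given above, past their annotated 5′ ends. In the other lists described later it was found in H2-M3 and H2-Q7, of 9 other class I molecules with a promoter, and in Psma1, of 6 constitutive proteasome subunits. The windows of Tap1 and Psmb9 are largely the same stretch read on opposite strands. A core motif of interferon regulatory factors (AANNGAAA) was present in H2-K1, H2-D1, B2m and H2-Aa, and in 23.9% of all promoters. A motif of gamma-activated sequences (TTCNNNGAA) was present in Psmb8 alone of the 8, and in 8.30% of all. A motif of kappa B sites (GGGNNTTCC) was present in H2-K1, H2-D1 and H2-Aa, and in 5.82% of all. All were searched on both strands. These matches, of motifs chosen after the promoters were seen, describe the letters of the windows, and binding was not measured.

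The cells are those of the authors' series-wide table, hereafter the kept cells: 3758 control, 3890 CCA and 3278 CCANT cells, with 70825549 to 95458516 UMIs per library and a median of 20710.5 to 24235.5 UMIs per cell. Levels are summed UMIs per 1000000 UMIs of all genes (CPM). With 1 library per group there is no replicate and no test, so differences are ratios between libraries with exact Poisson intervals, and shares carry exact (Clopper-Pearson) binomial intervals, at 95% and for counting error only. All 10 MG markers were higher in kept cells than in rods of the same library, for example Glul at 6686, 5751 and 5191 CPM against 308 to 343 CPM. Cdkn1b, the p27 gene, reached 226 CPM in control cells, 84.4 in CCA cells and 106 in CCANT cells. Ccnd1 was at 213, 136 and 129 CPM, so the mouse gene was not raised in the libraries labelled CCA and CCANT. Whether transcripts of the vector count toward the mouse gene is not given in the sources used here, so Ccnd1 does not check the labels. The libraries also differ in sex: Y-linked UMIs without Xist were found in 3708 control, 0 CCA and 998 CCANT cells, and Xist without Y-linked UMIs in 0, 3805 and 1505 cells. Both were found in 27 control, 75 CCA and 756 CCANT cells, which are left out of the comparisons by sex. Sex and treatment therefore cannot be told apart between control and CCA. Libraries shared 2 to 8 barcodes.

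The class I chains were lower in both treated libraries. H2-K1, a heavy chain, reached 1084 CPM in control cells, 732 in CCA cells and 649 in CCANT cells. H2-D1, the other classical heavy chain, was at 560, 426 and 367 CPM. B2m, the light chain that every class I molecule needs, was at 1065, 731 and 645 CPM. The order of the libraries was the same for the 3 genes. On the log2 scale, CCA over control gave H2-K1 a ratio of -0.57 (interval -0.58 to -0.55) and CCANT over control -0.74 (-0.75 to -0.72). For H2-D1 the ratios were -0.39 and -0.61, and for B2m they were -0.54 and -0.72. The sum of the 3 chains was 2709, 1889 and 1661 CPM, and its log2 ratio over control was -0.52 (-0.53 to -0.51) in CCA and -0.71 (-0.72 to -0.70) in CCANT. Between the treated libraries it was -0.19 (-0.20 to -0.17) for CCANT over CCA. The 2 ratios over control share the control library. For CCANT, the ratio was smaller between cells of the same sex: with Y-linked UMIs in both libraries it was -0.44.

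**Figure D1:**
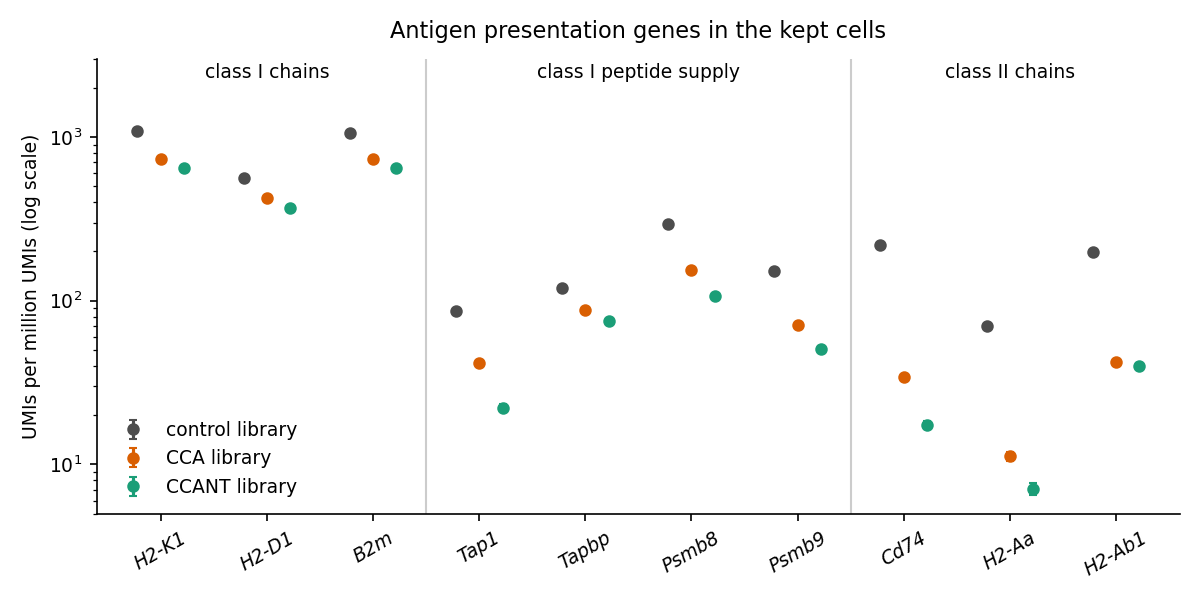
Level of each gene in the kept cells of the control (3758 cells), CCA (3890 cells) and CCANT (3278 cells) libraries, in UMIs per 1000000 UMIs on a log axis, with 95% Poisson intervals that are mostly smaller than the points. All 10 genes were highest in the control and lowest in the CCANT library, with the widest gaps among the class II chains.

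Class I chains were present in nearly every kept cell. To compare shares, a random draw of 8000 UMIs was taken from each cell, and 36 control, 103 CCA and 53 CCANT cells were too shallow for it. At this depth H2-K1 had a UMI in 99.6% of control, 97.8% of CCA and 97.4% of CCANT cells, B2m in 99.9%, 98.0% and 97.1%, and H2-D1 in 97.4%, 90.9% and 88.2%. At full depth the 9 shares lay between 98.3% and 99.9%. The median cell held 21 class I UMIs of 8000 in control, 14 in CCA and 12 in CCANT. The lower level was thus spread over the cells: the 1% of cells with the most H2-K1 held 3.31% of its UMIs in the control and 4.32% in the CCA library. Rods, given for comparison, had H2-K1 UMIs in 78.0% of 50 control, 43.2% of 95 CCA and 31.2% of 93 CCANT cells at the same depth. These rods are the deepest of a class whose median cell held 4966 to 5071 UMIs. B2m was found in 30% to 31.2% of these rods in the 3 libraries, with overlapping intervals. Over all rods its log2 ratio over control was -0.48 (-0.67 to -0.29) in CCA and -0.77 (-0.97 to -0.57) in CCANT.

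The genes that supply class I with peptides were lower by more than the chains themselves, except Tapbp. Psmb8, an immunoproteasome subunit, reached 294 CPM in control cells, 154 in CCA cells and 107 in CCANT cells. Psmb9, its partner subunit, was at 152, 71.5 and 51.1 CPM. Tap1, the peptide transporter subunit, was at 86.0, 41.5 and 22.2 CPM. Tapbp, tapasin, was at 120, 87.5 and 75.5 CPM. Again the control was highest and CCANT lowest for each gene. As log2 ratios, CCA over control gave -1.05 (-1.11 to -0.99) for Tap1, -1.09 (-1.14 to -1.05) for Psmb9, -0.93 (-0.96 to -0.90) for Psmb8 and -0.45 (-0.50 to -0.41) for Tapbp. For CCANT over control the ratios were -1.96 (-2.04 to -1.88), -1.58, -1.45 and -0.67 in that order. Tap1 also had the largest step of this group between the treated libraries, at -0.90 (-0.99 to -0.82) for CCANT over CCA, against -0.52 to -0.21 for the other 3 genes. The sum of the 4 genes was 652, 354 and 256 CPM, and its log2 ratio over control was -0.88 (-0.90 to -0.86) in CCA and -1.35 (-1.37 to -1.33) in CCANT.

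At 8000 UMIs, Tap1 had a UMI in 46.4% of control, 23.9% of CCA and 15.6% of CCANT cells, against 28%, 3.16% and 1.08% of rods. The control rods' interval of 16.2% to 42.5% rests on 50 cells. Psmb8 was found in 85.2%, 64.9% and 56.0% of kept cells and Psmb9 in 65.4%, 39.7% and 32.2%, all above the rods, in which Psmb8 reached 28%, 8.42% and 5.38% and Psmb9 12%, 2.11% and 1.08%. Tapbp was found in 59.1%, 46.8% and 44.8%, with rods at 28%, 26.3% and 30.1%. At full depth the control, CCA and CCANT shares were 79.0%, 46.7% and 33.9% for Tap1, 90.3%, 76.5% and 75.7% for Tapbp, 98.1%, 87.9% and 83.4% for Psmb8, and 91.9%, 66.3% and 58.9% for Psmb9.

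Psmb8 and Psmb9 replace the constitutive subunits Psmb5 and Psmb6 when a proteasome becomes an immunoproteasome, as Psmb10 replaces Psmb7. Per UMI of Psmb5 there were 2.57 (2.52 to 2.63) UMIs of Psmb8 in control, 1.26 (1.23 to 1.29) in CCA and 0.914 (0.886 to 0.943) in CCANT cells. Per UMI of Psmb6 there were 1.28, 0.531 and 0.399 UMIs of Psmb9. Per UMI of Psmb7 there were 1.80, 0.941 and 0.757 UMIs of Psmb10. All 3 ratios were highest in the control. Since UMIs were not corrected for transcript length, each ratio is read between libraries only. The constitutive partners themselves hardly differed, with log2 ratios over control of 0.10 and 0.04 for Psmb5, 0.17 and 0.10 for Psmb6, and 0.10 and -0.07 for Psmb7 in CCA and CCANT.

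The class II chains showed the largest differences of the 10 genes. Cd74, the invariant chain, reached 219 CPM in control cells, 34.1 in CCA cells and 17.4 in CCANT cells. H2-Aa, a class II alpha chain, was at 70.1, 11.2 and 7.06 CPM. H2-Ab1, a class II beta chain, was at 199, 42.1 and 40.0 CPM. The control library stood far above both treated libraries for each chain, while H2-Ab1 was nearly level between CCA and CCANT. As log2 ratios, CCA over control gave -2.68 (-2.74 to -2.63) for Cd74, -2.65 (-2.75 to -2.55) for H2-Aa and -2.24 (-2.30 to -2.19) for H2-Ab1. For CCANT over control the ratios were -3.66, -3.31 and -2.32. CCANT over CCA gave -0.97 (-1.07 to -0.88) for Cd74, -0.66 (-0.82 to -0.51) for H2-Aa and -0.07 (-0.15 to -0.0021) for H2-Ab1. The sum was 489, 87.4 and 64.4 CPM, which gave log2 ratios over control of -2.48 (-2.52 to -2.45) in CCA and -2.92 (-2.97 to -2.88) in CCANT.

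Free RNA can carry class II UMIs into any droplet, and its part here was not tested. As 2 measures, kept cells were set beside rods and beside microglia-like cells. At 8000 UMIs, Cd74 was found in 43.0% of control cells, above 20% of control rods (10.0% to 33.7%), but its 13.3% of CCA and 6.95% of CCANT cells lay within the intervals of the rods (4.42% to 17.2% and 3.08% to 14.9%). H2-Aa was found in 26.7%, 6.92% and 3.57% of kept cells, and all 3 shares lay within the intervals of the rods, which had it in 16.0%, 7.37% and 2.15%. H2-Ab1 was found in 53.1%, 18.9% and 20.7%, above the rods of each library at 16.0%, 7.37% and 5.38%. The pooled shares of Cd74 and H2-Aa in the treated libraries were thus not told from those of the few rods with 8000 UMIs. Over all rods, most of them shallower, the CPM of Cd74 was below that of kept cells in CCA and CCANT. That of H2-Aa was clearly below it in CCANT only of these 2 libraries. The part of background in the ratios of both genes over control was not tested. The pooled share does not describe every cell: by cluster of CCA kept cells, Cd74 went from 12.1 CPM to 135 CPM, the latter in an unnamed cluster led by Lcn2 and Gfap. The interval of the control rods is wide, from 50 cells, and the share of H2-Aa in control cells is not read from it alone. At full depth the shares were 65.1%, 24.4% and 14.3% for Cd74, 47.1%, 12.96% and 7.87% for H2-Aa, and 76.9%, 34.5% and 38.8% for H2-Ab1.

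The second measure sets kept cells against the microglia-like cells of the same library, described later. The sum of 9 microglia markers in kept cells was 0.426%, 0.309% and 0.331% of its microglial level in control, CCA and CCANT. Cd74 was at 2.03% of its microglial level in the control (1.99% to 2.06%), far above the markers, but at 0.371% in CCA and 0.363% in CCANT, close to them. H2-Aa gave 1.67%, 0.299% and 0.386%. H2-Ab1 gave 4.54%, 1.11% and 2.15%, above the markers in all 3 libraries. The microglial levels were themselves lower in CCANT than in CCA, with log2 ratios of -0.94 for Cd74 and -1.03 for H2-Aa and H2-Ab1. Each percentage is therefore read within its library. The 2 measures differ for H2-Aa in the control, where the level lay above the microglia markers and the share did not leave the rods' interval. The proportions also differed from those of microglia: per 100 UMIs of Cd74 there were 91.0 (89.2 to 92.8), 124 and 231 UMIs of H2-Ab1 in kept cells, against 40.5, 41.5 and 39.0 in microglia-like cells.

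Class II UMIs were unevenly spread over the kept cells. With 10 or more class II UMIs at 8000 there were 411 control cells (11.04%, 10.1% to 12.1%), 42 CCA cells (1.11%, 0.8004% to 1.496%) and 18 CCANT cells (0.558%, 0.331% to 0.881%). No class II UMI was found in 32.3%, 70.4% and 74.2% of cells. The 1% of cells with the most Cd74 held 17.2% of its UMIs in control, 35.9% in CCA and 48.1% in CCANT. In the control library the cells with 10 or more class II UMIs also had more class I, at 4211 CPM for the 3 chains against 2284 in cells with none, and more of the peptide supply genes, at 1002 against 543 CPM. The same order was seen in CCA (4726 against 1708 CPM of class I) and CCANT (4698 against 1539). The 9 microglia markers in the control were at 49.1 CPM in the cells with 10 or more class II UMIs and at 51.9 CPM in those with none, while 4 MG genes (Glul, Rlbp1, Aqp4 and Kcnj10) were at 7380 and 10600 CPM. In CCA the 9 markers were at 24.1 and 43.0 CPM in the same sets of cells. The part of these values in the result was not tested.

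**Figure D2:**
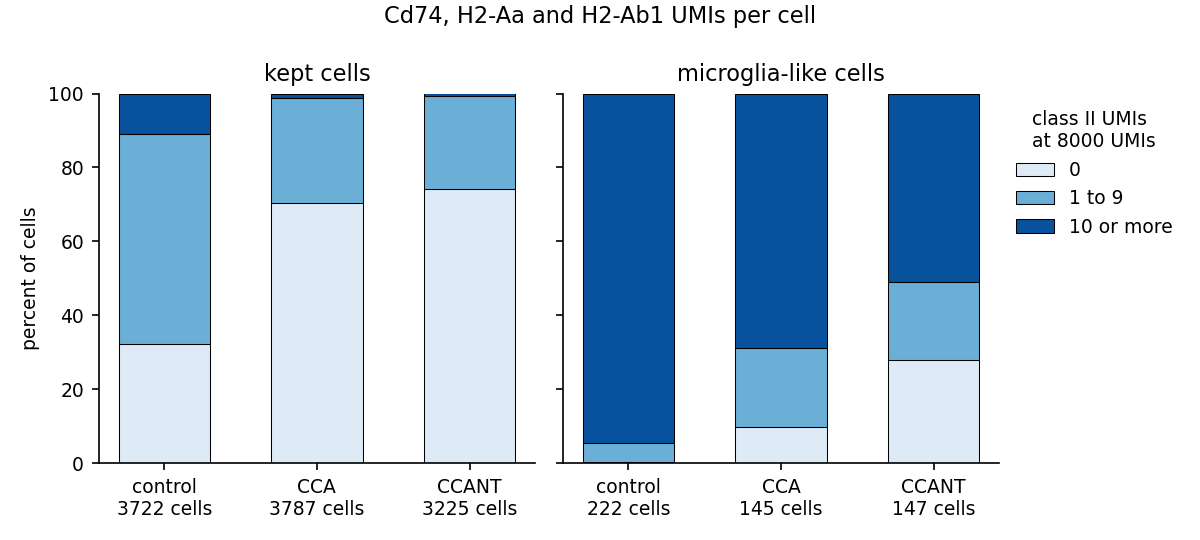
Percent of kept cells (left) and of microglia-like cells (right) with 0, 1 to 9, or 10 or more UMIs of Cd74, H2-Aa and H2-Ab1 together, each cell thinned to 8000 UMIs. The share with 10 or more went from 11.04% in the control to 1.11% in CCA and 0.558% in CCANT among kept cells, and from 94.6% to 69.0% and 51.02% among microglia-like cells.

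Counted with a threshold of 2-fold, 5 of the 10 genes (Tap1, Psmb9, Cd74, H2-Aa and H2-Ab1) were lower in CCA than in control, where 0.863% of 16915 genes were, and 0 were higher, where 5.44% of genes were. In CCANT, 6 of 10 were at least 2-fold lower than in control, the same 5 and Psmb8, against 1.89% of genes, and 0 were higher against 5.55%. Between CCANT and CCA 0 were 2-fold lower, against 1.83% of genes, and 0 higher, against 0.822%. All 10 genes were below 0 in each of the 3 comparisons. Of the 16915 genes, 6607 were below 0 in CCA over control, 7509 in CCANT over control and 10135 in CCANT over CCA. Their median log2 ratio was -0.99 for CCA and -1.52 for CCANT over control, where the median of all genes was 0.07 and 0.03, and -0.35 for CCANT over CCA, where it was -0.04.

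The rest of the pathway was counted in lists. Of 10 other class I molecules tested, 1 was at least 2-fold lower in CCA and 7 in CCANT, with medians of -0.63 and -1.04. H2-Q10 had the lowest ratios of this list (-1.27 and -2.00), and Cd1d1, which presents lipids, the highest (0.13 and 0.18). Of 9 other genes of class I peptide supply, 0 and 2 were 2-fold lower. The lowest were Tapbpl, a relative of tapasin, in CCA (-0.92) and the immunoproteasome subunit Psmb10 in CCANT (-1.31, after -0.84 in CCA), while the chaperone Canx was highest (0.16 and 0.0023). Tap2, the other subunit of the transporter, had ratios of -0.45 and -0.96, against -1.05 and -1.96 for Tap1. None of 9 constitutive proteasome subunits was 2-fold lower or higher, with medians of 0.10 and 0.05. Their extremes were Psma1 (0.04) and Psmb6 (0.17) in CCA, and Psmb4 (-0.09) and Psmb1 (0.14) in CCANT.

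Of 8 other class II pathway genes tested, 3 were 2-fold lower in both treated libraries: H2-Eb1 (-2.28 and -2.93), H2-DMa (-1.30 and -1.35) and H2-DMb1 (-1.71 and -1.58). Ifi30, a lysosomal thiol reductase, had the highest ratios (0.46 and 0.51). Of 12 regulators, 3 were 2-fold lower in CCA and 4 in CCANT. Ciita, the class II transactivator, had the lowest ratios (-2.23 and -3.12), with 13.7, 2.92 and 1.58 CPM. Nlrc5, its class I counterpart, was at 134, 79.6 and 56.0 CPM (-0.76 and -1.26). The interferon gamma receptor subunit Ifngr2 was highest (0.38 and 0.61). Irf8, a transcription factor of the interferon regulatory family, had ratios of -1.08 and -1.36, while the interferon receptor subunits Ifngr1, Ifnar1 and Ifnar2 stayed between -0.04 and 0.08. Between CCANT and CCA the lowest genes of the lists other than the regulators were H2-T24 (-1.04), Tap2 (-0.51), H2-Eb1 (-0.65) and Psmb4 (-0.19), and the highest were Cd1d1 (0.05), Pdia3 (-0.08), Lgmn (0.27) and Psmb2 (0.02).

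**Figure D3:**
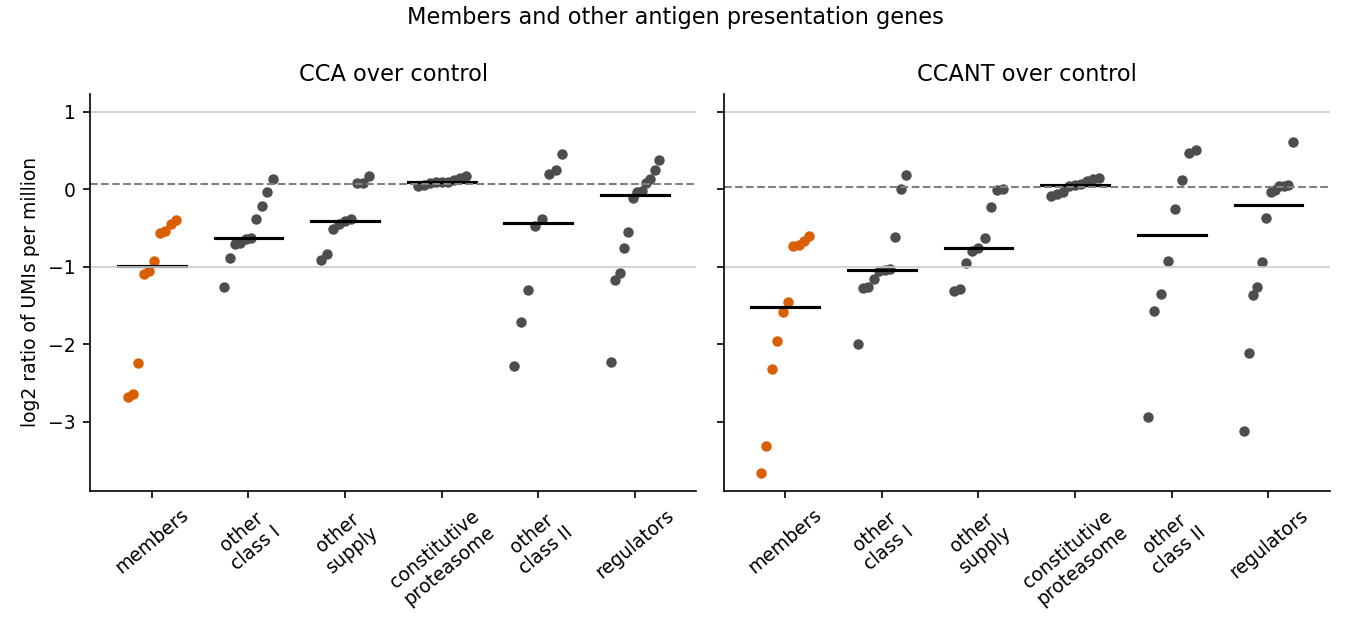
Log2 ratio of UMIs per 1000000 in the kept cells for the 10 genes (orange) and for the tested genes of 5 other lists (grey), for CCA over control (left) and CCANT over control (right). Short black lines are list medians, the dashed line is the median of all 16915 genes and the grey lines mark 2-fold. The 9 constitutive proteasome subunits lay at 0.04 to 0.17 in CCA, while the 10 genes lay at -2.68 to -0.39.

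The differences were also present within groups of like cells. When cells were clustered without the 10 genes and the other pathway lists, 6 clusters had at least 50 kept cells in control and CCA and 5 in control and CCANT. The libraries were unevenly spread over them: the cluster that held most control cells held 1912 control, 279 CCA and 30 CCANT kept cells. Each of the 10 genes was lower than control in 6 of 6 clusters for CCA and in 5 of 5 for CCANT, and the interval included 0 only for Tap1 in 1 cluster of CCA. How many of all genes were lower within clusters is not given. The class I sum ranged from -0.76 to -0.54 across clusters in CCA and from -0.96 to -0.67 in CCANT. The class II sum ranged from -3.95 to -2.14 and from -4.16 to -2.76. The cluster led by the interferon-induced genes Iigp1, Gbp2 and Cxcl10 differed from the others between the treated libraries, with a class II sum of 0.34 for CCANT over CCA where the other 5 lay below 0.

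Within the CCANT library, cells with Xist had less of all 10 genes than cells with Y-linked UMIs, so the sex of the cell moves with the genes. How many of all genes did so is not given. The log2 ratio of Xist cells over Y-linked cells was -0.53 (-0.55 to -0.51) for the class I chains, -0.36 (-0.41 to -0.31) for peptide supply and -0.75 (-0.85 to -0.65) for the class II chains. The median depth was 20200 and 20473 UMIs in the 2 sets. With cells of 1 sex on both sides, CCANT over control (Y-linked) gave -0.44, -1.15 and -2.52 for the 3 sums, and CCANT over CCA (Xist) gave -0.44, -0.63 and -0.77, where all cells gave -0.19, -0.47 and -0.44. H2-Ab1, nearly level between CCA and CCANT in all cells, was at 41.8 CPM in CCA and 33.1 CPM in CCANT cells with Xist, a log2 ratio of -0.34 (-0.44 to -0.24). Animals of a sex were pooled in unknown number, so sex and animal cannot be told apart.

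Cycling cells did not have less class I than other cells of their library. Cells with 10 or more UMIs of cycling markers at 8000 numbered 213 in CCA, 69 in CCANT and 2 in the control, which was too few for a ratio. Over cells with fewer than 2 such UMIs, the class I chains had a log2 ratio of 0.20 (0.17 to 0.23) in CCA and 0.32 (0.27 to 0.36) in CCANT. Peptide supply gave 0.45 (0.39 to 0.51) and 0.65 (0.54 to 0.76), led by Psmb9 at 0.77 and 1.13. The class II chains gave 0.01 (-0.13 to 0.15) and -0.09 (-0.37 to 0.18), so that no difference was detectable at this depth.

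GFP marks the control vector, and in the control library it was at 50.7 CPM, against 3.39 in CCA and 2.68 in CCANT. At 8000 UMIs, 2719 control cells had no GFP UMI, 710 had 1 and 293 had 2 or more, with median depths of 24032, 24932 and 25287 UMIs. Cells with more GFP had more of all 10 genes, and mostly so for class II. Cd74 was at 168, 315 and 446 CPM in the 3 bins. H2-Aa was at 56.0, 96.6 and 134 CPM. H2-Ab1 was at 162, 272 and 361 CPM. For all 3 chains the order followed GFP. Class I followed it in smaller steps: H2-K1 was at 1046, 1143 and 1280 CPM, H2-D1 at 535, 609 and 664, and B2m at 1040, 1127 and 1150.

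For cells with 2 or more GFP UMIs over cells with none, the class II sum had a log2 ratio of 1.28 (1.246 to 1.32), the class I sum 0.24 (0.22 to 0.26) and the peptide supply sum 0.26 (0.22 to 0.30). Tap1 had the smallest ratio, at 0.14 (0.02 to 0.25). By a threshold of 25% more, 3 of the 10 genes, the class II chains, were higher in GFP cells, against 8.31% of 14733 genes. The median of the 10 genes was 0.30 and that of all genes -0.02. Ciita gave 0.95 and Nlrc5 -0.05. The full list of 12 microglia markers was at 71.0, 66.5 and 70.3 CPM in the 3 bins, while the 4 MG genes were at 10163, 9698 and 8801 CPM.

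**Figure D4:**
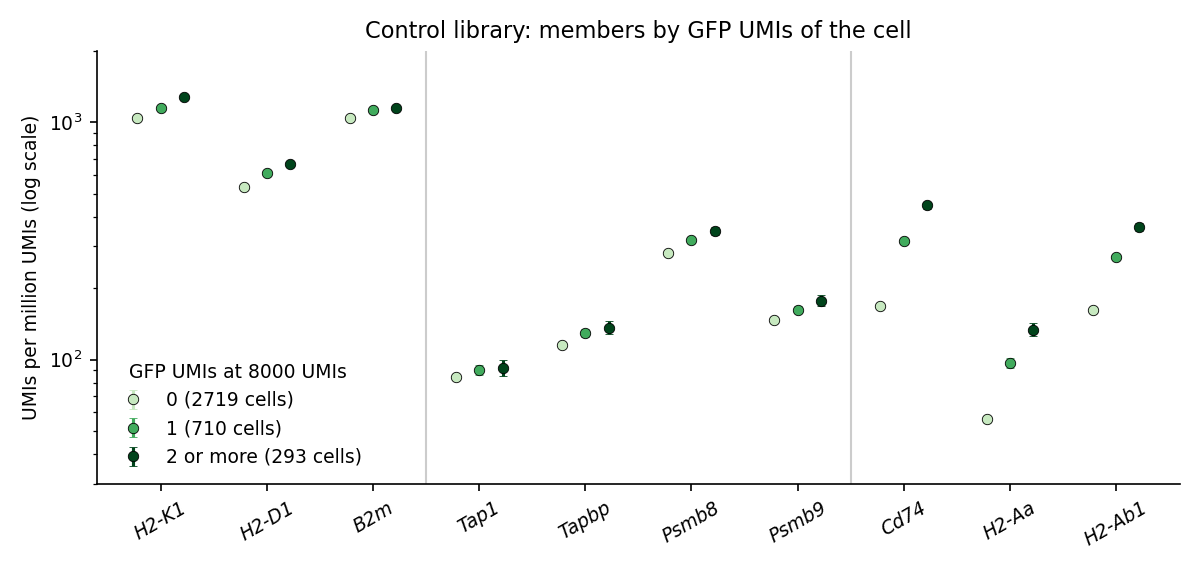
Levels of the 10 genes in control kept cells with 0, 1, and 2 or more GFP UMIs at 8000 UMIs, in UMIs per 1000000 UMIs on a log axis with 95% Poisson intervals. All 10 genes were lowest in cells with no GFP UMI, and Cd74 went from 168 to 446.

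In the treated libraries, where the vector with GFP was the smaller part of the 9:1 mix, 80 CCA and 66 CCANT cells had a GFP UMI. In CCA these cells had log2 ratios of -0.03 (-0.08 to 0.02) for class I, -0.22 (-0.34 to -0.10) for peptide supply and 0.15 (-0.07 to 0.37) for class II over cells with none. In CCANT the ratios were 0.12 (0.06 to 0.17), 0.04 (-0.11 to 0.19) and 0.34 (0.06 to 0.61). Among cells with no GFP UMI, the comparison of the libraries gave -0.47 for class I, -0.82 for peptide supply and -2.15 for class II in CCA over control.

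Microglia-like cells, found among all cells that passed the filters and named from C1qa, Cx3cr1 and other markers, were the class with the highest class II level. They numbered 224 in the control, 147 in CCA and 154 in CCANT. Cd74 was at 10825 CPM in the control, 9179 in CCA and 4780 in CCANT. The class II sum was 19416, 16721 and 8473 CPM, or -0.22 (-0.23 to -0.20) in CCA and -1.20 (-1.22 to -1.18) in CCANT as log2 ratios over control. Class I was at 7407, 6296 and 4928 CPM (-0.23 and -0.59), and peptide supply at 1305, 900 and 606 CPM (-0.54 and -1.11). All 10 genes were lower in both treated libraries with intervals below 0, and the share of all genes lower in these cells is not given. None of these cells was among the kept cells, and all had passed the same sort.

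More of the treated microglia-like cells held little class II. With no Cd74 UMI at 8000 there were 2 of 222 control cells (0.901%, 0.109% to 3.22%), 17 of 145 CCA cells (11.7%, 6.98% to 18.1%) and 45 of 147 CCANT cells (30.6%, 23.3% to 38.7%). With 100 or more Cd74 UMIs there were 38.7%, 37.9% and 15.6%. The intervals of control and CCA overlapped there, and CCANT lay below both. Glial transcripts and depth moved with this in CCANT: the 41 cells with no class II UMI had 2644 CPM of the 4 MG genes and a median of 13871 UMIs, against 1108 CPM and 17724 UMIs in the 75 cells with 10 or more. In CCA the 14 and 100 such cells had 974 and 1111 CPM and a median of 19322.5 and 22333 UMIs. The class also held the macrophage genes Lyz2 (2100, 2483 and 2217 CPM) and Mrc1 (49.1, 43.4 and 105 CPM), the monocyte receptor gene Ccr2 (135, 43.4 and 39.5 CPM), which was lower in both treated libraries as class II was, and in CCANT the antibody gene Igkc (2908 CPM, against 81.8 and 15.04). Of the 12 microglia markers, 6 were highest in CCANT, such as Cx3cr1 (940, 1041 and 1334 CPM), and 3 were lowest there, Aif1 (679, 613 and 448 CPM), C1qa (4154, 4664 and 3845 CPM) and C1qc (2290, 2578 and 2083 CPM). The part of these values in the result was not tested.

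Retinal neurons also had less class I in the treated libraries, and cones the most so. In cone-like cells (152, 263 and 252 cells) H2-K1 was at 690 CPM in the control, 119 in CCA and 95.6 in CCANT, and H2-D1 at 710, 160 and 127 CPM. Over control, the class I sum stood at a log2 ratio of -2.27 (-2.37 to -2.17) in CCA and -2.58 (-2.69 to -2.47) in CCANT. In bipolar-like cells (591, 853 and 1004) H2-K1 was at 432, 152 and 159 CPM, and the sum gave -1.35 (-1.41 to -1.30) and -1.23 (-1.28 to -1.18). In rod-like cells (851, 1357 and 1274) H2-K1 was at 135, 60.1 and 59.1 CPM and the sum gave -1.04 and -1.22. In retinal ganglion cell-like cells (144, 79 and 52) the sum gave -1.11 and -0.98. Amacrine-like cells (623, 671 and 640) had the smallest ratios of the neurons, with -0.67 (-0.71 to -0.62) and -0.47 (-0.52 to -0.43). They include 1 cluster that scored higher for horizontal cells (1.79) than for amacrine cells (1.42), and without it the ratios were -0.47 and -0.34.

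In cones, bipolar cells and rods, H2-K1 stood at a higher share of its level in kept cells than 4 MG genes did. The 4 MG genes were in cones at 3.02%, 3.15% and 4.10% of their level in kept cells of the same library, while H2-K1 was at 63.7%, 16.2% and 14.7%. In bipolar cells the MG genes were at 5.23%, 6.14% and 7.10%, and H2-K1 at 39.9%, 20.7% and 24.5%. In rods they were at 4.92%, 5.55% and 6.81%, and H2-K1 was closer to them, at 12.5%, 8.21% and 9.09%. The proportions of the genes also differed between classes: per 100 UMIs of H2-K1 there were 98.3 UMIs of B2m in control kept cells, 132 in microglia, 34.5 in bipolar cells and 28.1 in cones. Psmb8 in rods, at 5.35%, 6.60% and 8.57% of kept cells, and Psmb8 in cones of the treated libraries (4.01% and 2.74%) stood near the MG genes. Where these Psmb8 UMIs came from was not tested.

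Tapbp did not follow the other genes in neurons. Its ratio over control included 0 in rods (0.01 and 0.11), cones (0.03 and -0.16), bipolar cells (-0.12 and -0.18) and amacrine cells (-0.18 and -0.14), and lay below 0 in ganglion cells (-0.70 and -0.66). In the same classes the sum of the 4 peptide supply genes lay at -1.64 to -0.62. By level, the class II sum in control rods, cones, bipolar and amacrine cells was at 0.353% to 0.466% of its microglial level. The microglia markers were at 0.296% to 0.462% there. Control ganglion cells had 1.06% of the microglial class II level, with the markers at 0.623%. Per 100 UMIs of Cd74, these control neurons held 58.7 (ganglion) to 158 (cone) UMIs of H2-Ab1, against 40.5 in microglia-like cells. The source of these UMIs was not tested.

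**Figure D5:**
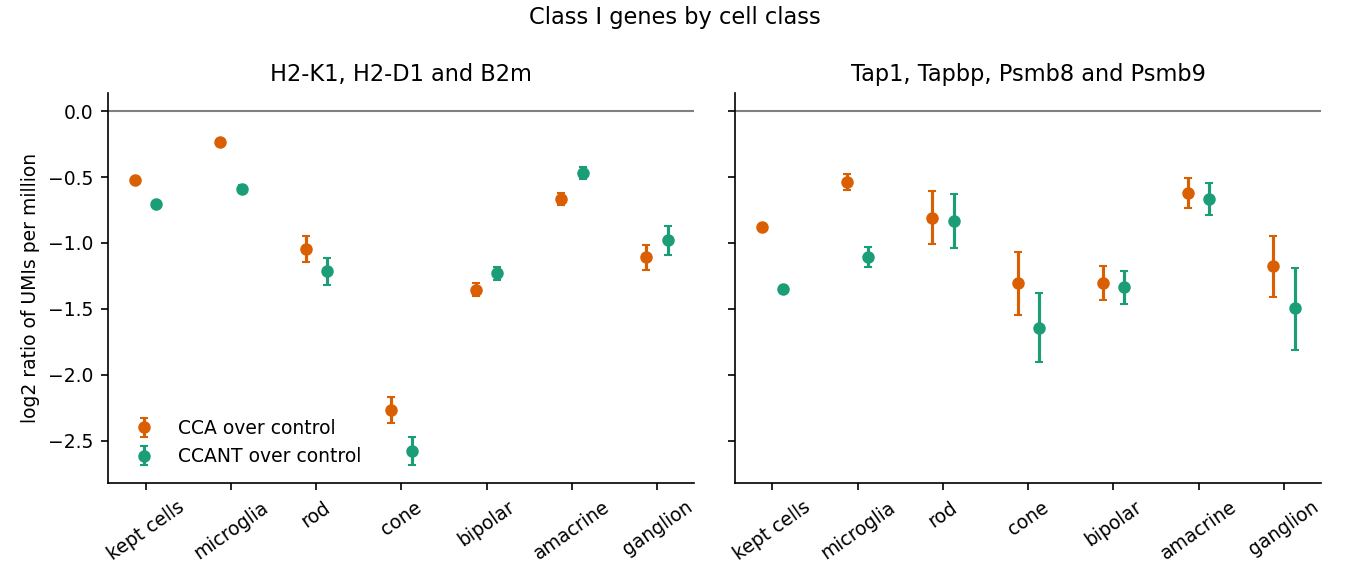
Log2 ratio of CCA over control and CCANT over control for the sum of the class I chains (left) and of the peptide supply genes (right) in the kept cells and in 6 classes of cells named from markers, with 95% Poisson intervals. All ratios lay below 0, and the class I chains in cones were lowest, at -2.27 and -2.58.

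Between the treated libraries the neurons differed from the kept cells in direction for some genes. CCANT over CCA gave 0.20 (0.15 to 0.24) for the class I sum in amacrine cells, or 0.12 (0.06 to 0.19) without the cluster with the higher horizontal score, and 0.12 (0.07 to 0.18) in bipolar cells, against -0.19 in kept cells, -0.31 in cones and -0.17 in rods. Cells of the vessel wall and other glia were few. In pericyte-like cells (57 control and 99 CCA) the class I sum was 2244 and 1506 CPM, a log2 ratio of -0.57 (-0.66 to -0.49). Classes with fewer than 50 cells in a library gave levels and no ratio: the class I sum was 5523, 4561 and 3222 CPM in astrocyte-like cells (15, 33 and 142 cells), 3216, 3401 and 2577 CPM in endothelial-like cells (25, 47 and 31), and 4621, 4623 and 4037 CPM in T or NK cell-like cells (77, 32 and 24). In T or NK and endothelial cells the CCA level of this sum was not below the control. With so few cells no difference is read from it, and the other genes are not given for these classes.

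Markers of other cell types were found in the kept cells and did not all follow the 10 genes. All 12 microglia markers were above 0 in each library, with sums of 70.0, 65.2 and 64.0 CPM. B or plasma cell markers summed to 57.0, 16.6 and 34.0 CPM. Those of T or NK cells summed to 3.66, 0.829 and 0.777 CPM, with Ncr1 at 0 in the control, Gzma in CCA, and Cd3e and Gzmb in CCANT. Those of macrophages or dendritic cells summed to 5.85, 4.66 and 3.84 CPM, with Cd209a and Clec9a at 0 in CCA and Cd209a in CCANT. Rod markers summed to 297, 826 and 1465 CPM, highest in CCANT. The 8 endothelial markers, which were all above 0, summed to 2216, 1839 and 2123 CPM with a UMI in 99.3% to 99.8% of kept cells, where endothelial-like cells had 13467, 15827 and 14798 CPM. Flt1, 1 of the 8, was among the leading genes of the largest cluster at resolution 0.5, named MG, with an endothelial score near 0. The endothelial sum therefore does not stand for endothelial RNA alone. The 8 pericyte markers, also all above 0, summed to 110, 120 and 122 CPM with a UMI in 84.2% to 88.5% of cells. The part of the B cell, T cell, endothelial and rod values in the result was not tested. Among kept cells with no UMI of 9 microglia markers, the class I sum had a log2 ratio of -0.51 in CCA and -0.72 in CCANT.

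Across the 3722 control cells at 8000 UMIs, the genes outside all lists whose UMIs went most with the class I sum were Serping1 (Pearson r 0.35), Ifitm3 (0.34), Dbi (0.34), Ly6e (0.33) and Gbp8 (0.32), of 8754 genes compared. Of the other members, Cd74 had 0.46, H2-Ab1 0.45, H2-Aa 0.39, Psmb8 0.32, Psmb9 0.22, Tapbp 0.18 and Tap1 0.15. The cells share 1 library and 1 depth, and these are descriptions with no test. Only Gbp8 of the 5 was 2-fold lower in the treated libraries, with log2 ratios of -1.44 and -1.89, while Serping1 had -0.19 and 0.26.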

How the data were processed

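The deposited values were UMI counts per gene and cell. The authors aligned reads to mm10 with tdTomato and GFP added and counted introns, with Cell Ranger 6.1.1 per the submitters' processing notes. Cells were kept from 2000 features upward if they had no more than 100000 UMIs and 15% mitochondrial UMIs. They removed doublets, kept tdTomato+ cells, took out small clusters of cell types other than MG and rods and a cluster of MG with rod transcripts that they judged contaminated, and left Y-linked genes, Xist and Tsix out of the series-wide table. The study's methods give another tamoxifen dose and start than the labels, which were followed here.

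Barcodes of the series-wide table were matched to the 3 library matrices, whose counts gave all values. There were 0 columns of other series. CPM are summed counts per 1000000 counts, ratios carry exact Poisson and shares Clopper-Pearson intervals at 95%, and shares were taken after thinning to 8000 UMIs. A count of 0 allows up to 3. With 1 library per group no test was made. Genes with at least 100 UMIs over the 3 libraries (for GFP, in the control) were counted past 2-fold between libraries, or 25% more between GFP bins.

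All cells passing the filters were clustered (2000 variable genes without the members, the pathway lists, Xist, Tsix, Y-linked genes, tdTomato and GFP, 20 components, 20 neighbours, Leiden resolution 1). A class passed where its marker score reached 1.3 on the log2 scale with at least 3 markers raised. Clusters were named for the highest-scoring class that passed and had a marker among the 10 leading genes. For MG no leading marker was needed, but the cluster stayed unnamed where another class had more of them. The rule on leading genes was set after the clusters were seen. Doublets were not removed from the clustered cells, most of which lie outside the kept cells. Mixed clusters stayed unnamed, and classes with fewer than 50 cells gave no ratio.

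The members and lists were chosen with earlier results of these data known. Named outside the members were the lowest and highest gene of each list, Psmb10, Tap2, Nlrc5, Ciita, Psmb5, Psmb6 and Psmb7 as partners or regulators, and the 5 genes with the highest Pearson r with the class I sum among genes found in at least 10% of control cells. H2-DMa, H2-DMb1, Irf8, Ifngr1, Ifnar1, Ifnar2 and the genes of the microglia check were named after their values were seen, and motifs and their spacing of 10 to 30 bases were chosen after the promoters were seen. Tools were Python 3.11.15, numpy 2.4.6, scipy 1.17.1, scanpy 1.11.5, leidenalg 0.10.2, igraph 0.11.9 and matplotlib 3.10.9. 1 gene of the lists is counted but not reported here by name. The ratio scripts were tested on simulated data. Alternatives covered the choice of cells, scaling, depth, filters and cluster resolution.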

Additional observations from a re-analysis of the deposited data

Results flagged for a closer look

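Some genes had ratios on opposite sides of 0 in different cells under the same comparison, with both counting intervals off 0. None of these differences between groups of cells was tested. For CCANT over CCA, H2-K1 had a log2 ratio of -0.17 in the kept cells, -0.37 in microglia-like and -0.32 in cone-like cells, and 0.18 in amacrine-like cells. H2-D1 gave -0.22 in the kept cells, -0.37 in microglia-like, -0.20 in rod-like and -0.33 in cone-like cells, and 0.22 in bipolar-like and 0.33 in amacrine-like cells. B2m gave -0.18 in the kept cells, -0.33 in microglia-like and -0.29 in rod-like cells, and 0.52 in retinal ganglion cell-like cells, of which CCANT held 52. For cells with at least 1 GFP UMI over cells with none, Tapbp had a log2 ratio of -0.28 in the CCA and 0.18 in the control library, and Psmb9 -0.35 in CCA and 0.18 in the control, where CCA held 80 cells with GFP.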

How the results depend on the processing

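Of 51 alternatives for the 3 sums over control, 0 changed direction, 22 stayed within the counting interval of the reported value and 29 left it. The reported log2 ratios in CCA and CCANT were -0.52 and -0.71 for class I, -0.88 and -1.35 for peptide supply, and -2.48 and -2.92 for class II. In clusters named MG only they were -0.59 and -0.78, -0.96 and -1.40, and -2.79 and -3.13. With 0 GFP UMIs they were -0.47 and -0.66, -0.82 and -1.30, and -2.15 and -2.59. Without cells with 2 or more cycling UMIs, class I gave -0.57 and -0.73 and peptide supply -0.94 and -1.38. With median-of-ratios size factors, class I gave -0.59 and -0.74, peptide supply -0.95 and -1.39, and class II -2.55 in CCA. Cells with no microglia marker UMI gave class I -0.51 and -0.72 and, in CCANT, class II -2.82. With Y-linked cells in both libraries, CCANT gave -0.44, -1.15 and -2.52. The series-wide table gave class I -0.51 in CCA, and the mean over cells gave peptide supply -0.90 in CCA. The causes were not tested.

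GFP bins at full depth, 3 or more UMIs over 0, gave class I a ratio of 0.31 in place of 0.24. A filter of 10 UMIs in place of 100 gave 562 genes lower and 2034 higher in CCA and 825 lower and 1830 higher in CCANT, and one of 500 UMIs gave 72, 503, 174 and 547, where 146, 921, 319 and 938 were reported. The share of genes lower in CCA was 2.59% of 21682 genes at 10 UMIs, 0.863% at 100 and 0.523% of 13766 at 500, and that in CCANT 3.8%, 1.89% and 1.26%. The share of genes higher was 9.38%, 5.44% and 3.65% in CCA and 8.44%, 5.55% and 3.97% in CCANT. The cause was not tested. At cluster resolution 0.5, bipolar-like cells gave class I -1.15 and -1.05 and class II -2.38 in CCA, and 15 of 18 values of the classes stayed within their intervals. Without the cluster with a higher horizontal score, an alternative chosen after seeing the data, amacrine-like cells gave class I -0.47 and -0.34 over control and 0.12 for CCANT over CCA, and in CCANT over control peptide supply -0.55 and class II -1.51. Of 30 shares, 29 differed at full depth beyond the interval at 8000 UMIs.

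No paired analysis was possible because each group had 1 library and no test was made, and leaving out a library would remove its whole group. The intervals cover counting error and not the spread between animals or libraries. Sex and treatment cannot be told apart between control and CCA. In CCANT over CCA the parts of NMDA and TSA cannot be told apart. Fewer class II UMIs limit the treated libraries most, where pooled shares of Cd74 and H2-Aa lay within the intervals of rods.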
